A study of Mus musculus with 12 samples.

Results

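Nupr1 and 7 genes of the integrated stress response (Atf4, Atf5, Ddit3, Trib3, Asns, Chac1 and Sesn2) were followed through mouse germ cells made in culture and taken from embryos. These are 8 of the 18193 genes named by a probe set of the arrays, and all 8 are among the 13436 genes tested. The set was proposed with results of these same arrays in view and is headed by Nupr1, so the levels and differences of Nupr1 are given as a description with no test. Probe sets whose annotation names only 1 of the members were kept, 15 in all, and each gene's probe set was chosen by its measured values, as that with the highest mean over the 12 arrays. The other 7 members carry the adjusted p of a fit over all genes tested. Their tests were read with earlier results of the arrays known.

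Primordial germ cells (PGCs) are the embryonic precursors of eggs and sperm, and PGC-like cells (PGCLCs) are their counterparts induced from embryonic stem (ES) cells. Each of 6 groups had 2 arrays, called biological replicates in the titles. Female PGCLCs were taken after 3 days of induction (d3), after 6 days (d6 female), or after 3 days followed by 6 days of aggregation with female E12.5 gonadal somatic cells (d3ag6). Male PGCLCs were taken after 6 days (d6 male). All 4 culture groups had a C57BL/6 background and the BVSC reporters, Blimp1-mVenus and stella-ECFP. Embryonic PGCs came from E12.5 females and, with sex unknown, from E9.5, both with stella-EGFP on a mixed background (C57BL/6, BDF1). All cells were sorted by FACS on their reporters, and cDNA was amplified from 5 ng of RNA, the equivalent of 500 cells, with 12 initial PCR cycles. Every comparison of PGCLCs with PGCs therefore also compares culture with embryo, 1 strain background with another and 1 reporter with another, which cannot be told apart. The labels name no ES cell line or clone and do not say how many embryos were pooled.

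The integrated stress response is a shared answer of cells to amino acid shortage, unfolded protein in the endoplasmic reticulum, heme shortage and viral RNA. Kinases specific to each stress phosphorylate the translation factor eIF2, general protein synthesis falls, and the message of the transcription factor Atf4 is translated better. Atf4 protein then switches on genes for amino acid supply, tRNA charging and, under lasting stress, cell death. Because Atf4 is mainly controlled at translation, an mRNA measurement does not show its protein. Nupr1 encodes a small chromatin-associated protein that is induced by many stresses and is known as a target of Atf4.

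Atf4 acts with C/EBP proteins at a composite site whose core is TGATGNAA. The members' promoters are shown because they share a regulator and the arrays show some of them high in the same samples. In RefSeq promoters of build GRCm38.p6, from 250 bases before to 50 bases after the start of transcription, all 8 members had an entry. The 8 letters TGATGNAA were searched on both strands, and no other motif was searched. They were found in 4 of the 8 members, against 1219 of 27025 genes of the promoter table (4.51%). Of the 70 other genes of the response lists described below, 53 had an entry and 13 of these held the letters (24.5%). Matches were thus not confined to the members. With entries for fewer than 80% of these genes, their share was not tested against that of the members. The windows below read 5′ to 3′ along the gene's own strand, and the capitals mark the match.
Nupr1, chr7:126625527-126625626, minus strand: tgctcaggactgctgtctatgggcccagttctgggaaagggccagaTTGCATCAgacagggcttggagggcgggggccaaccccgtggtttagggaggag
Chac1, chr2:119351003-119351102, plus strand: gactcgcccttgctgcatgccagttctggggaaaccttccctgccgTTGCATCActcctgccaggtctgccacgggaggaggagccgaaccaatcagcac
Asns, chr6:7693210-7693309, minus strand: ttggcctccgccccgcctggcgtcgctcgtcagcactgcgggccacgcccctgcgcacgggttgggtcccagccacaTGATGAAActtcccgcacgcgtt
Trib3, chr2:152344028-152344057, minus strand: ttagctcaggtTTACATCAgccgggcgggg

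In Nupr1 and Chac1 the match was the same 8 letters, TTGCATCA on the gene's strand, which is the motif read from the opposite strand. Its first base lay 110 bases before the start in Nupr1 and 193 bases before it in Chac1. The Asns match lay 23 bases before the start on the gene's own strand, and the Trib3 match 15 bases after the start on the opposite strand. These letters were not in the windows of Ddit3, Atf4, Atf5 and Sesn2. A match is a run of letters and was not tested as a binding site.

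Values are log2 expression values per probe set. They were quantile normalized between arrays here, since the array medians as deposited ranged from 4.73 to 4.87. Replicate arrays correlated at 0.969 to 0.9904, array maxima were 13.76 to 13.93, and the share of values listed at exactly 0 was 2.07% to 2.3%. With 2 arrays a group, the number of arrays limits the precision. Germ cell markers had a log2 summed level of 14.44 to 15.25 over the 9 markers on the arrays, but single markers differed between groups. Dazl read 5.92 and 3.81 in E9.5 and 12.96 and 13.04 in E12.5 PGCs. It was higher than in E9.5 by 4.77 in d6 female and by 4.02 in d6 male (limma, adjusted p under 0.05). No other marker of the 9 was called there. In E12.5 minus E9.5, 3 were called higher and 1 lower. The part of these differences in those below was not tested. Gonadal somatic markers summed to 9.60 to 9.71 in d3ag6 and to 8.88 to 9.42 elsewhere, and blood and macrophage markers to 11.24 to 11.52 in d3ag6, 10.27 to 11.77 in E9.5 PGCs and 9.0 to 9.46 in the other 4 groups. Mesenchyme markers summed to 11.74 to 12.71 in E9.5 PGCs and to 10.74 to 12.01 elsewhere, and endothelial markers to 12.01 to 12.08 in d6 male and 9.57 to 9.79 in E12.5 PGCs. No marker was at exactly 0 on any array, and the part of other cell types in the differences below was not tested. A code in the sample descriptions reads EA1013 for the 3 female PGCLC groups and the E12.5 PGCs. For E9.5 and d6 male it reads EA0831 in replicate 1 and EA0842 in replicate 2. What the code stands for is not stated. In d6 female against E9.5, d6 female against d6 male and E12.5 against E9.5, code and group cannot be told apart, whereas d6 male against E9.5 and d3ag6 against E12.5 compare arrays of the same codes.

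Nupr1 was high on every PGCLC array and very low on every PGC array. Its value was 9.52 and 8.38 in d3 PGCLCs, 7.97 and 7.51 in d6 female, 6.55 and 7.87 in d3ag6, and 7.64 and 7.36 in d6 male. In E9.5 PGCs it was 0.72 and 1.63, and in E12.5 PGCs it was 2.28 on replicate 1 and listed at exactly 0 on replicate 2. All 8 PGCLC arrays lay above 4.81, the median of all values on the arrays, and all 4 PGC arrays lay below it. The lowest PGCLC array stood 4.28 log2 units above the highest PGC array. The second Nupr1 probe set gave a gap of 4.09. Its highest PGC array was E12.5 replicate 2 (1.94), whereas on the first probe set it was E12.5 replicate 1.

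The mean of Nupr1 was 8.95 in d3, 7.74 in d6 female, 7.50 in d6 male and 7.21 in d3ag6. Among the culture groups, both d3 arrays lay above both d6 female arrays, whereas d6 female, d6 male and d3ag6 overlapped. The SD of d3ag6 was 0.93 (n = 2), larger than the steps between these 3 means. E9.5 and E12.5 PGCs overlapped as well, with means of 1.18 and 1.14. On the second probe set they did not, with values of 0.09 to 0.51 in E9.5 and 1.55 to 1.94 in E12.5, all far below 4.81. Differences between group means were 6.56 ± 0.73 (SE) for d6 female minus E9.5, 6.32 for d6 male minus E9.5 and 6.07 for d3ag6 minus E12.5, the last at the same SE. Values this far below the middle of the arrays carry little information on size. With every value under 4.81 raised to 4.81, the 3 differences became 2.93, 2.69 and 2.40 log2 units, or 7.6-fold, 6.44-fold and 5.27-fold. Between arrays of the same code, d6 male exceeded E9.5 by 6.92 on code EA0831 and by 5.73 on code EA0842. Nupr1 passed the filter for testing only through its PGCLC arrays, whereas the other 7 members lay above 4.81 on all 12 arrays. In sorted cells measured in bulk, fewer cells with a transcript and less transcript per cell cannot be told apart.

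**Figure D1:**
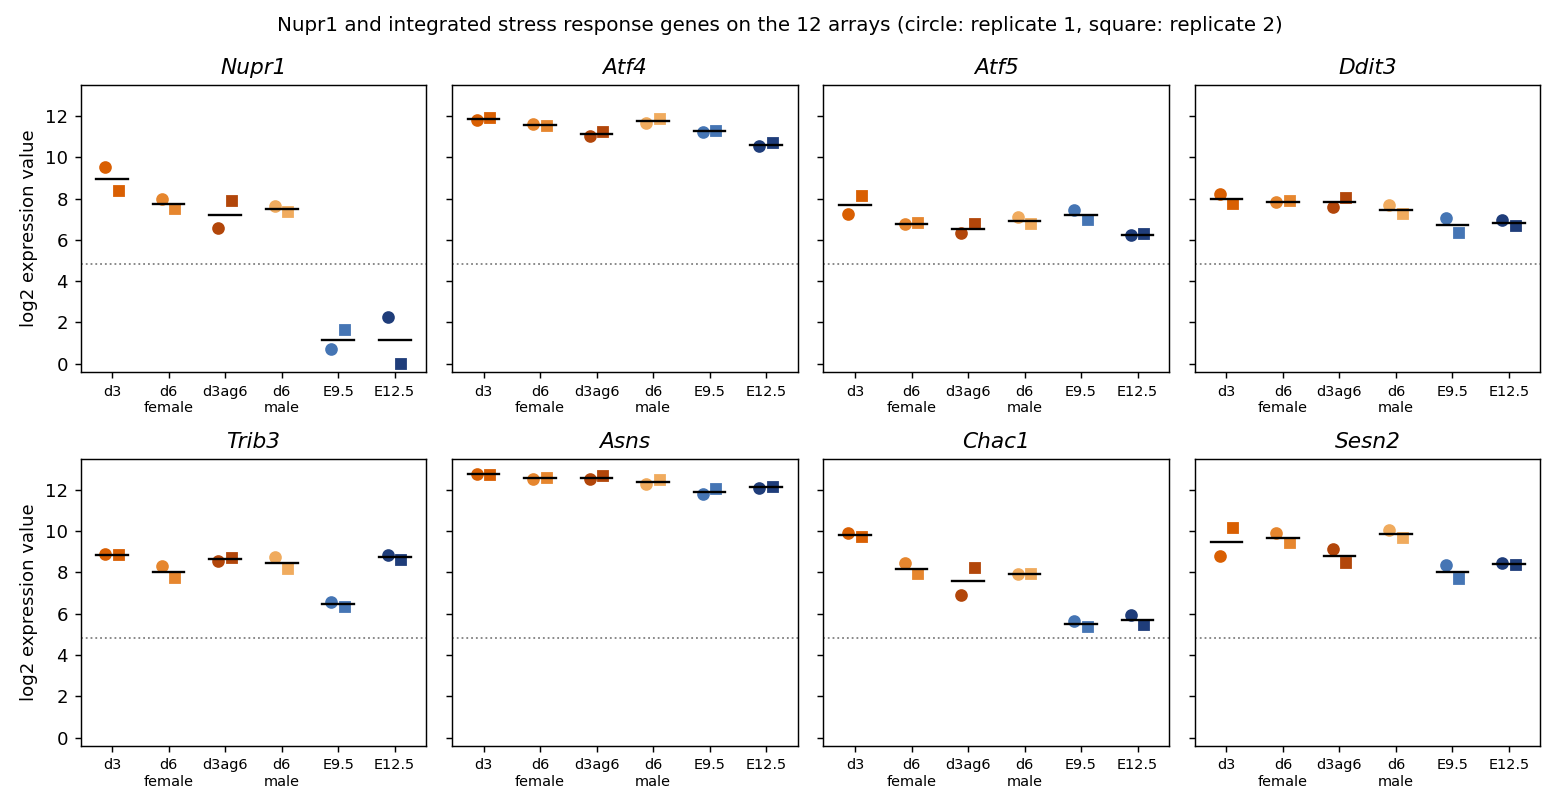
Log2 expression value (vertical axis) of each member on the 12 arrays by group (horizontal axis). Circles are replicate 1, squares replicate 2, horizontal bars group means, and the dotted line is at 4.81, the median of all values. Nupr1 lies above that line on the 8 PGCLC arrays and below it on the 4 PGC arrays. The other 7 members are above it throughout, and Trib3 is low in E9.5 PGCs but not in E12.5 PGCs.

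Between PGCLCs and PGCs, every tested member that was called was higher in the PGCLCs. In d6 female minus E9.5, 5 members were higher and none lower (limma, adjusted p under 0.05), where 13.9% of all genes were called in either direction. The median difference of the 7 was 1.13, against 0.06 over all genes. In d6 male minus E9.5, 3 members were higher and none lower, with a background of 10.6% and a median of 0.74 against 0. In d3ag6 minus E12.5, 1 member was higher and none lower, with a background of 9.03% and a median of 0.46 against 0. Leaving out 1 array gave 2 calls (either d6 female array) or 3 (either E9.5 array) in the first comparison and 2 in the second without d6 male replicate 1 or 2 or E9.5 replicate 2. In the third it gave 0 without d3ag6 replicate 2 or either E12.5 array. The comparisons with E9.5 share the E9.5 arrays. Marker lists of other cells differed as well. Mesenchyme markers were lower than in E9.5 in 6 of 10 cases in d6 female and 5 of 10 in d6 male, and endothelial markers were higher in d6 male in 4 of 11. Blood and macrophage markers were higher in d3ag6 than in E12.5 in 5 of 9. Their part in the members' differences was not tested. When each fit used only the arrays of the groups compared, 10 of the 15 member calls made over all comparisons were lost.

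Within the culture, the members called were lower in d3ag6 than in d3. Between d3 and d3ag6, 3 members fell and none rose, where 10.6% of all genes were called, and the median difference was -0.67 against 0 over all genes. This count was 1 without d3 replicate 2, d3ag6 replicate 1 or d3ag6 replicate 2. Between d3 and d6 female no member was called by limma, 3 of 7 had an unadjusted p under 0.05, and 4.06% of all genes were called. No member was called between d6 female and d3ag6 either, where 2 of 7 had an unadjusted p under 0.05 and 6.39% of all genes were called. Between male and female d6 PGCLCs limma called no member, with none at an unadjusted p under 0.05 and 1.47% of all genes called. A p that misses the threshold does not show that the sexes were alike, and the array code differs between them.

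**Figure D2:**
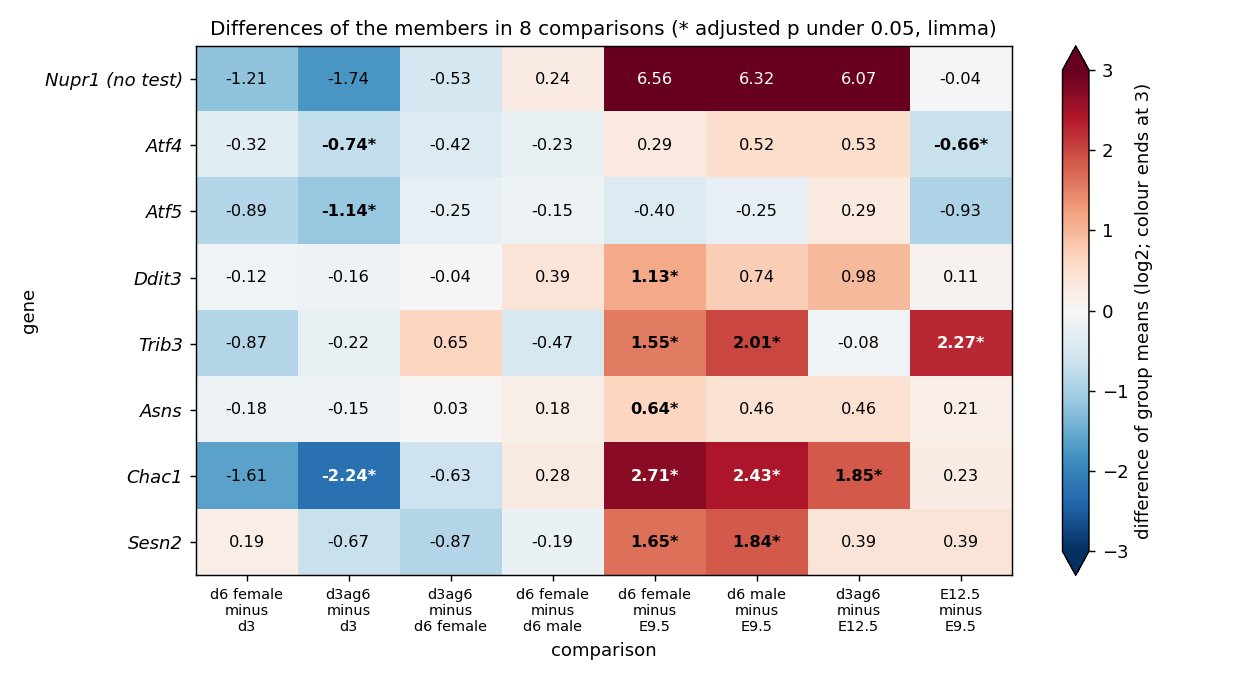
Difference of group means on the log2 scale (number and colour, colour ending at 3) for each member (rows) in 8 comparisons (columns). A star marks an adjusted p under 0.05 in limma over all genes, and Nupr1 carries no test. Chac1 has a star in 4 comparisons and Trib3 in 3, whereas Atf5 has a star only in d3ag6 minus d3.

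Atf4, the transcription factor at the centre of the response, was near the top of the array's range in every group. It read 11.82 and 11.91 in d3, 11.59 and 11.50 in d6 female, 11.04 and 11.21 in d3ag6, 11.67 and 11.87 in d6 male, 11.21 and 11.29 in E9.5, and 10.52 and 10.67 in E12.5. The d3 and d6 male arrays were thus the highest and overlapped, the E12.5 arrays were the lowest, and d3ag6 overlapped E9.5. Atf4 fell by 0.74 ± 0.15 (SE) from d3 to d3ag6 (limma, adjusted p = 0.0151), a 1.67-fold change. It was lower by 0.66 in E12.5 than in E9.5 PGCs (a difference of -0.66 with adjusted p = 0.0138). Neither call held in all fits without 1 array: the first was lost without d3 replicate 2 or either d3ag6 array (adjusted p up to 0.111), the second without either E12.5 array or E9.5 replicate 2 (up to 0.107). Both were also lost when the probe sets of Atf4 were averaged, 1 of which read 0 to 3.26 on the arrays. The remaining Atf4 probe set had means of 11.67 in d3, 11.2 in d3ag6, 11.1 in E9.5 and 10.64 in E12.5, and was not tested alone. The PGCLC against PGC differences of Atf4 were 0.29, 0.52 and 0.53 for d6 female minus E9.5, d6 male minus E9.5 and d3ag6 minus E12.5, and none was called. With the array code as a block, a setting added after the data were seen, the d6 male difference passed with an adjusted p of 0.033. Its 2 within-code differences were 0.46 and 0.58.

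Atf5, a relative of Atf4 that is also favoured at translation when eIF2 is phosphorylated, did not separate PGCLCs from PGCs. It read 7.24 and 8.12 in d3, 6.76 and 6.81 in d6 female, 6.33 and 6.75 in d3ag6, 7.09 and 6.78 in d6 male, 7.43 and 6.94 in E9.5, and 6.23 and 6.28 in E12.5. The d3 and E9.5 arrays overlapped at the top, and E12.5 was lowest. Atf5 fell by 1.14 ± 0.30 (SE) from d3 to d3ag6 (limma, adjusted p = 0.0415). That call was lost without d3 replicate 2 or either d3ag6 array (adjusted p up to 0.229), and it was lost with the replicate number as a block (0.0505), without a filter and on the values as deposited. Between E9.5 and E12.5 PGCs the difference was -0.93, with an adjusted p of 0.0501.

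Ddit3 encodes CHOP, a transcription factor that Atf4 induces and that promotes cell death under lasting stress. Its values were 8.22 and 7.73 in d3, 7.84 and 7.86 in d6 female, 7.59 and 8.03 in d3ag6, 7.69 and 7.23 in d6 male, 7.08 and 6.35 in E9.5, and 6.98 and 6.67 in E12.5. The 8 PGCLC arrays lay above the 4 PGC arrays, with a gap of 0.15 between the nearest arrays, and the 4 culture groups overlapped with their neighbours. The difference of 1.13 ± 0.30 (SE) for d6 female minus E9.5 was called (limma, adjusted p = 0.0354). It was lost without either d6 female array or E9.5 replicate 2 (adjusted p up to 0.165), without a filter and on the values as deposited. For d3ag6 minus E12.5 the difference was 0.98 with an adjusted p of 0.0753, and for d6 male minus E9.5 it was 0.74 with 0.169. A second Ddit3 probe set read 0 to 2.54 on the arrays, with means of 1.35 in d6 female and 1.27 in E9.5. When its probe sets were averaged, Ddit3 did not pass the filter for testing.

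Trib3, a pseudokinase induced by Atf4 and Ddit3 that feeds back on Atf4, followed a different pattern. It was high in every group except E9.5 PGCs. The values were 8.89 and 8.82 in d3, 8.28 and 7.70 in d6 female, 8.57 and 8.71 in d3ag6, 8.75 and 8.16 in d6 male, 6.58 and 6.31 in E9.5, and 8.86 and 8.58 in E12.5. E12.5 PGCs overlapped d3 and d3ag6, and the E9.5 arrays lay apart from all others. Trib3 was higher than in E9.5 PGCs by 1.55 ± 0.25 (SE) in d6 female (limma, adjusted p = 0.00504), by 2.01 in d6 male (0.00168) and by 2.27 in E12.5 PGCs (0.00051). These 3 calls held with each array left out, with an adjusted p of at most 0.0412. Between arrays of the same code, d6 male exceeded E9.5 by 2.17 and 1.85. The chosen probe set is of the x_at kind, whose probes may also match other transcripts. The second Trib3 probe set had the same order of E9.5 below all other groups, with means of 6.86 in E9.5 and 7.65 to 8.03 in the others, over a smaller range.

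The E12.5 to E9.5 comparison was the only one in which members were called in both directions: Trib3 was higher and Atf4 lower in E12.5, while 23.6% of all genes were called. Without either E12.5 array or E9.5 replicate 2, only Trib3 was left. Cells of d3ag6 were aggregated after d3 and did not pass through d6 female, so these groups follow different courses after d3. The difference of d3ag6 from d6 female was compared with that of E12.5 from E9.5 PGCs, and both are called steps below. For Trib3 the steps were 0.65 and 2.27. Their difference of -1.62 ± 0.36 (SE) was called (limma, adjusted p = 0.0329). It was the only member called, where 5.75% of all genes were. The call was lost in 6 of 8 fits without 1 array, with an adjusted p up to 0.128, and held without d6 female replicate 2 or E9.5 replicate 1. The fit without a filter and that on the values as deposited also lost it. E9.5 arrays carry other codes than the rest of this contrast, so code and group cannot be told apart in it.

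Chac1, an enzyme that degrades glutathione and a sensitive target of Atf4, had the largest differences among the tested members. It read 9.90 and 9.69 in d3, 8.45 and 7.91 in d6 female, 6.91 and 8.20 in d3ag6, 7.90 and 7.91 in d6 male, 5.62 and 5.33 in E9.5, and 5.95 and 5.46 in E12.5. Both d3 arrays lay above all others, the later PGCLC groups overlapped, and all PGC arrays were lower than all PGCLC arrays by at least 0.96 log2 units. Chac1 was higher by 2.71 ± 0.38 (SE) in d6 female than in E9.5 PGCs (limma, adjusted p = 0.00257), a 6.55-fold difference. For d6 male minus E9.5 the difference was 2.43 (adjusted p = 0.00452), and the within-code values were 2.28 and 2.58. Both calls held with each array left out. Against E12.5 PGCs, d3ag6 was higher by 1.85 (adjusted p = 0.0185), a call lost without d3ag6 replicate 2 or either E12.5 array (adjusted p up to 0.136).

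Along the culture, Chac1 fell by 2.24 ± 0.38 (SE) from d3 to d3ag6 (limma, adjusted p = 0.00704), a 4.73-fold change that held with each array left out. From d3 to d6 female the difference was -1.61 with an adjusted p of 0.0528. It passed when genes were filtered at the 75th percentile of all values (0.0431) and on the values as deposited (0.0475). Nupr1 had its highest values in d3 as well, and its differences over the same steps were -1.74 and -1.21.

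Asns, asparagine synthetase, was among the brightest probe sets of the arrays and had the smallest range of the 8 members. It read 12.76 and 12.71 in d3, 12.53 and 12.58 in d6 female, 12.50 and 12.67 in d3ag6, 12.26 and 12.48 in d6 male, 11.81 and 12.00 in E9.5, and 12.09 and 12.15 in E12.5. The PGCLC arrays lay above the PGC arrays with a gap of 0.10. The difference of 0.64 ± 0.15 (SE) for d6 female minus E9.5 was called (limma, adjusted p = 0.0252), and that call was lost without either d6 female array or E9.5 replicate 1 (up to 0.121). It was 0.46 in both d6 male minus E9.5 and d3ag6 minus E12.5, with adjusted p of 0.1 and 0.105. With the array code as a block, the former passed (0.0387).

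Sesn2 encodes a sestrin, a leucine sensor that holds back the growth kinase mTORC1. It was the only member whose mean was not highest in d3. Its values were 8.81 and 10.12 in d3, 9.91 and 9.40 in d6 female, 9.14 and 8.44 in d3ag6, 10.04 and 9.66 in d6 male, 8.35 and 7.67 in E9.5, and 8.47 and 8.33 in E12.5. Neighbouring groups overlapped all along the order of means. Sesn2 was higher than in E9.5 PGCs by 1.65 ± 0.43 (SE) in d6 female (limma, adjusted p = 0.0369) and by 1.84 in d6 male (0.0281). The first call was lost without any 1 of its 4 arrays (up to 0.191) and the second without E9.5 replicate 2 or either d6 male array (up to 0.128), and both were lost without a filter. A second, dimmer Sesn2 probe set disagreed: its mean was 6.05 in E9.5, 5.68 in d6 female and 7.08 in d6 male, and both calls were lost when the probe sets were averaged.

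Other genes of the response were taken from lists of eIF2 control, transcription factors, amino acid synthesis, amino acid transport, tRNA charging and stress effectors. Without the members, 68 genes of these lists were tested. In d6 female minus E9.5, 13 of the 68 were higher and none lower (19.1% against 13.9% of all genes), and in d6 male minus E9.5, 9 were higher and none lower (13.2% against 10.6%). In d3ag6 minus E12.5, 10 were higher and 1 lower (16.2% against 9.03%). In E12.5 minus E9.5, 5 were higher and 12 lower, and this share of 25% is near the 23.6% over all genes. With the 7 members included, leaving out 1 array took the count of called genes from 18 to 6 (d6 female replicate 1), 8 (d6 female replicate 2), 11 (E9.5 replicate 1) or 9 (E9.5 replicate 2) in the first comparison. In the second it went from 12 to 7 without either d6 male array and to 8 without either E9.5 array. In the third it went from 12 to 7 without d3ag6 replicate 1 and to 3 without any other array. The fourth went from 19 to 11 or 10 without E12.5 replicate 1 or 2, and to 15 or 13 without E9.5 replicate 1 or 2.

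Stress effectors, which hold the death and growth arrest genes downstream of Atf4 and Ddit3, were called in 5 of 15 cases in both d6 female and d6 male minus E9.5, all higher (33.3% against 13.9% and 10.6% of all genes). In each comparison 2 of the 5 were the members Chac1 and Sesn2, and the other 3 were Pmaip1, Bbc3 and Tnfrsf10b. Pmaip1, which encodes the BH3-only death protein Noxa, read 9.71 and 9.40 in d3, 7.68 and 8.11 in d6 female, 9.01 and 8.89 in d3ag6, 9.70 and 9.08 in d6 male, 5.66 and 3.74 in E9.5, and 5.92 and 5.96 in E12.5. All PGCLC arrays exceeded all PGC arrays. E9.5 replicate 2 lay below 4.81, the median of all values, so the size of differences from E9.5 is uncertain. The difference was 4.69 ± 0.51 (SE) for d6 male minus E9.5 (limma, adjusted p = 0.000831) and 3.20 for d6 female minus E9.5 (0.00447), and both calls held with each array left out. Bbc3, which encodes the related protein Puma, was higher by 1.36 ± 0.19 (SE) in d6 female than in E9.5 PGCs (adjusted p = 0.0022), also with each array left out. Pmaip1 and Bbc3 are also induced by p53.

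Of 14 genes of eIF2 control, 3 were called in d3ag6 minus E12.5 (2 higher and 1 lower, 21.4% against 9.03% of all genes), 3 in d6 female minus E9.5 (all higher, 21.4% against 13.9%) and 1 in d6 male minus E9.5 (7.14% against 10.6%). In E12.5 minus E9.5, 2 were higher and 3 lower (35.7% against 23.6%). Ppp1r15a encodes the GADD34 subunit that brings a phosphatase to eIF2 and ends the response. It read 8.71 and 8.70 in d3ag6, 7.58 and 7.48 in E12.5 PGCs, 8.26 and 8.32 in E9.5 PGCs, and 8.60 to 9.07 in the other groups. Ppp1r15a was higher by 1.18 ± 0.14 (SE) in d3ag6 than in E12.5 PGCs (limma, adjusted p = 0.00134) and differed by -0.76 between E12.5 and E9.5 (0.0048). Both calls held with each array left out. Impact, an inhibitor of Gcn2 signalling and a paternally expressed gene, was higher by 1.56 ± 0.16 (SE) in d6 female than in E9.5 (0.000697) and by 1.78 in d3ag6 than in E12.5 (0.000485). Both Impact calls were lost when its probe sets were averaged (0.177 and 0.406).

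From d3 to d3ag6 a part of the amino acid supply genes fell. Of 68 genes without the members, 17 were lower and 3 higher (29.4% against 10.6% of all genes), with a median of -0.39 against 0. Blood and macrophage markers were higher in d3ag6 at the same time, 5 of 9, and their part was not tested. By group, 6 of 12 amino acid synthesis genes, 4 of 10 transporters and 6 of 13 aminoacyl-tRNA synthetases were lower and none higher, and the rest, with Asns at -0.15, were not called. With the members, the count of 23 called genes became 16 without d3 replicate 1, 12 without d3 replicate 2, 7 without d3ag6 replicate 1 and 9 without d3ag6 replicate 2. Phgdh, the first enzyme of serine synthesis, read 11.45 and 11.57 in d3 and 8.34 and 9.21 in d3ag6, a difference of -2.73 ± 0.33 (SE) (limma, adjusted p = 0.00134). Cth, which makes cysteine from cystathionine, fell from 10.72 and 10.32 to 7.41 and 8.02 (-2.81, adjusted p = 0.00303). Slc7a3, a transporter of cationic amino acids, fell by 2.84 (0.00308), and Yars, which charges tRNA with tyrosine, by 1.18 (0.00536). These 4 calls held with each array left out. Stress effectors went the other way in 3 cases and were lower only for Chac1, and the 3 were Txnip (1.08, adjusted p = 0.00945), Ero1a (1.46) and Ndrg1 (2.04). Without single arrays those 3 lost their calls, Txnip without either d3ag6 array, Ero1a without any 1 of the 4 arrays, and Ndrg1 without d3 replicate 2 or either d3ag6 array (adjusted p up to 0.0644, 0.13 and 0.188).

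In the other culture comparisons the share of list genes called was near that of all genes. A missed call does not show that a gene was unchanged. In limma, 19 of 75 list genes had an unadjusted p under 0.05 in d6 female minus d3 and 23 in d3ag6 minus d6 female. No such share was counted over all genes. The list medians were -0.18 against -0.01 over all genes in the former and -0.16 against 0.01 in the latter. In d3ag6 minus d6 female, of the 75 list genes with members, 1 was higher and 5 lower (8.0% against 6.39%), and the count fell with each array left out. From d3 to d6 female, 3 were lower and none higher (4.0% against 4.06%), and the count was 0 to 2 with each array left out. Between d6 female and d6 male 1 list gene was called, Impact, with a difference of 0.82 and an adjusted p of 0.0481, and the call was lost without any 1 of the 4 arrays.

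Between the embryonic stages, 4 of 10 amino acid transporters were lower at E12.5 and 1 was higher (50% against 23.6% of all genes). Mesenchyme markers were lower at E12.5 in 8 of 10 cases, and their part was not tested. Slc1a5, the glutamine transporter ASCT2, read 9.40 and 9.53 in E9.5 and 6.03 and 6.14 in E12.5 PGCs, a difference of -3.38 ± 0.15 (SE) (limma, adjusted p = 1.81e-05). In d3ag6 it read 8.88 and 9.05, and it was thus higher than in E12.5 PGCs by 2.88 (9.54e-05). Slc38a1, another glutamine carrier, differed by -2.31 between E12.5 and E9.5 (0.00039), and Got1, which links aspartate to glutamate, by -1.86 (0.000657). All 4 calls held with each array left out.

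**Figure D3:**
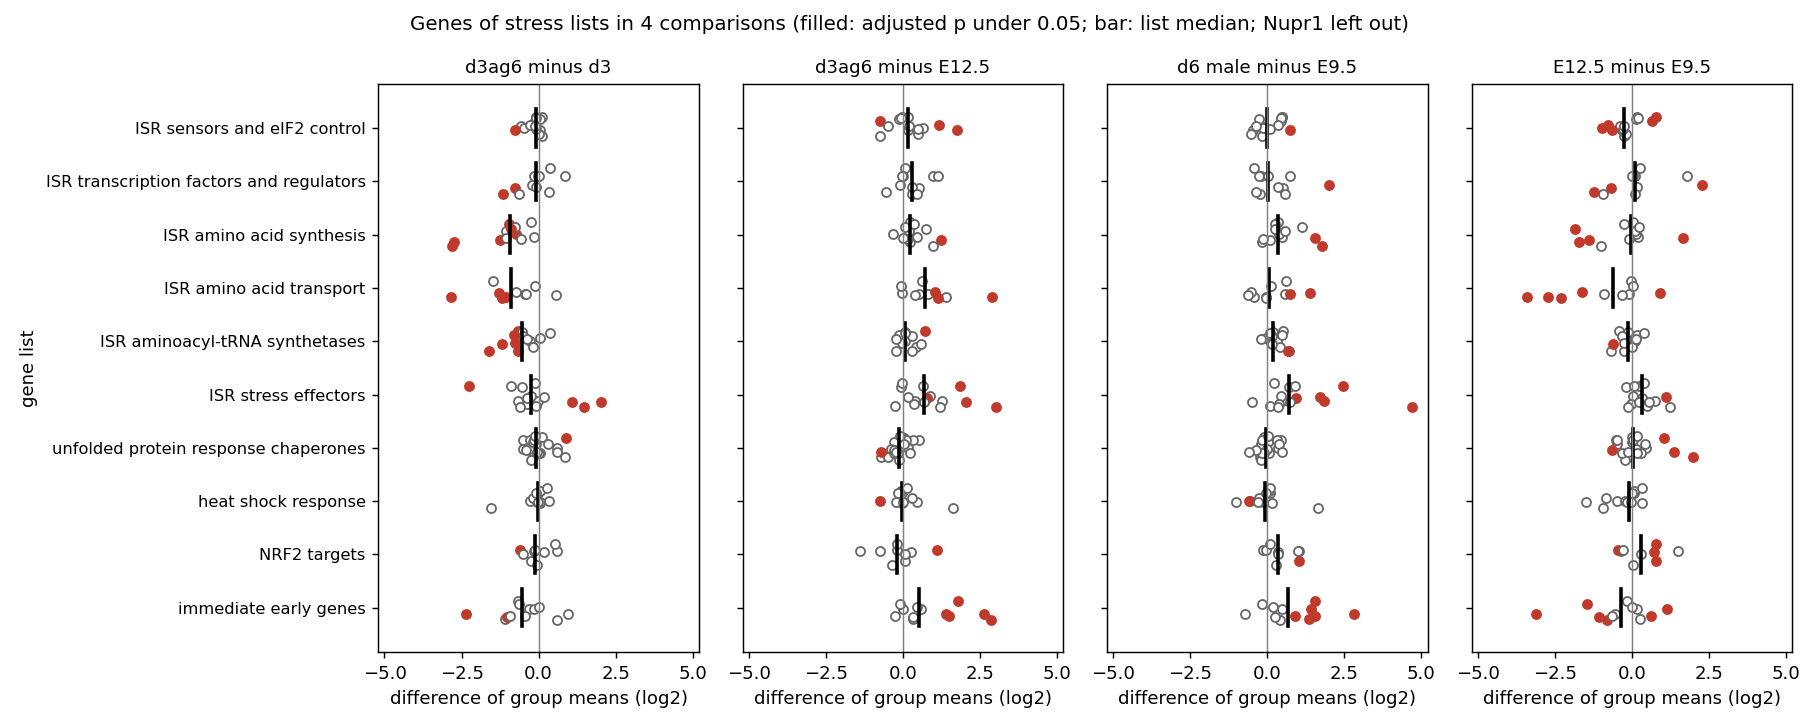
Differences of group means on the log2 scale (horizontal axis) for the genes of 10 stress lists (vertical axis) in 4 comparisons. Each point is a gene, filled where its adjusted p is under 0.05 in limma, black bars are list medians, and Nupr1 is left out. In d3ag6 minus d3 the filled points of the synthesis, transport and tRNA synthetase lists lie on the negative side, with Phgdh at -2.73 and Cth at -2.81. In d6 male minus E9.5 the filled points of all 6 integrated stress response lists lie on the positive side.

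Other stress programs were followed as a comparison. Chaperones and sensors of the unfolded protein response, 20 genes, had at most 1 gene called in any comparison that involves PGCLCs, and 4 between E12.5 and E9.5. Those shares, at most 5.0% and 20.0%, are below those of all genes in the same comparisons (23.6% for the embryonic one). In d6 male minus E9.5, limma called none of the 20, and 2 had an unadjusted p under 0.05. Their log2 summed level was 14.50 to 14.84 over all arrays. The 12 heat shock genes tested had at most 1 call in any comparison (8.33%, where 9.03% to 13.9% of all genes were called). Those calls, of Hsph1 and Dnajb1, were lower in PGCLCs. Their summed level was 15.66 to 15.88, a sum set by the brightest genes that can hide changes in others. Hspb1, not called, had means of 10.55 to 12.09 in the PGCLC groups, 9.87 in E9.5 and 8.94 in E12.5 PGCs. Targets and the regulator of the oxidative stress factor Nrf2, 9 genes tested, had 3 higher and 1 lower between E12.5 and E9.5 (44.4% against 23.6% of all genes), 2 called in d6 female minus E9.5 (22.2% against 13.9%) and at most 1 elsewhere. The regulator Nfe2l2 was higher in d6 male than in E9.5 PGCs by 1.03 ± 0.15 (SE) (adjusted p = 0.00291), a call that held with each array left out.

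Immediate early genes, which respond to growth signals and to handling of cells within minutes, were higher in PGCLCs than in PGCs in their summed level, as Nupr1 was. Their log2 summed level was 12.46 to 13.11 on the 8 PGCLC arrays and 11.92 to 12.39 on the 4 PGC arrays. Of 12 genes, 6 were higher and 1 lower in d6 female than in E9.5 (58.3% against 13.9% of all genes). In d6 male minus E9.5, 6 were higher and none lower (50% against 10.6%), and in d3ag6 minus E12.5, 5 were higher and none lower (41.7% against 9.03%). Junb, an AP-1 subunit, read 9.42 and 8.96 in d6 male and 6.71 and 6.05 in E9.5, a difference of 2.81 ± 0.31 (SE) (limma, adjusted p = 0.000928). Egr1, an early growth response factor, was higher by 2.85 ± 0.24 (SE) in d3ag6 than in E12.5 PGCs (0.000387). Both calls held with each array left out. The part of handling, sorting or dissociation in the levels of Nupr1 and the other members was not tested.

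The genes whose values followed Nupr1 most closely over the 12 arrays, among 13435 other genes tested, were Lefty1 (Pearson r = 0.969), Eps8l2 (0.957), Fabp3 (0.954), Lefty2 (0.947) and Tmem63a (0.946). Lefty1 and Lefty2 encode secreted inhibitors of Nodal, Fabp3 a carrier of fatty acids, and Eps8l2 a regulator of actin. Over the 6 group means the closest named genes were Ccdc28a (0.995), Btg2 (0.994), Arhgap8 (0.989), Lefty1 (0.986) and Gas5 (0.985). Over the 12 arrays Ccdc28a ranked only 85th (0.89) and Gas5 1365th (0.603). Gas5 did not separate PGCLC from PGC arrays, with 12.23 in E9.5 replicate 1 and 11.89 in d6 male replicate 2. Such correlations describe 12 points in 2 clusters, PGCLC and PGC, and any gene that separates those clusters scores high. Within the 8 arrays of code EA1013, Lefty1 ranked 72nd with r = 0.96. Among the members, Chac1 ranked 11th over the 12 arrays (0.936), Asns 73rd (0.897) and Ddit3 88th (0.89), whereas Atf4 (0.743), Sesn2 (0.712), Trib3 (0.524) and Atf5 (0.325) were farther down. That order depends on the points used: within the EA1013 arrays Ddit3 ranked 17th, Asns 116th and Chac1 352nd and the r of Trib3 was -0.105, and over the group means Ddit3 ranked 40th and Chac1 81st.

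**Figure D4:**
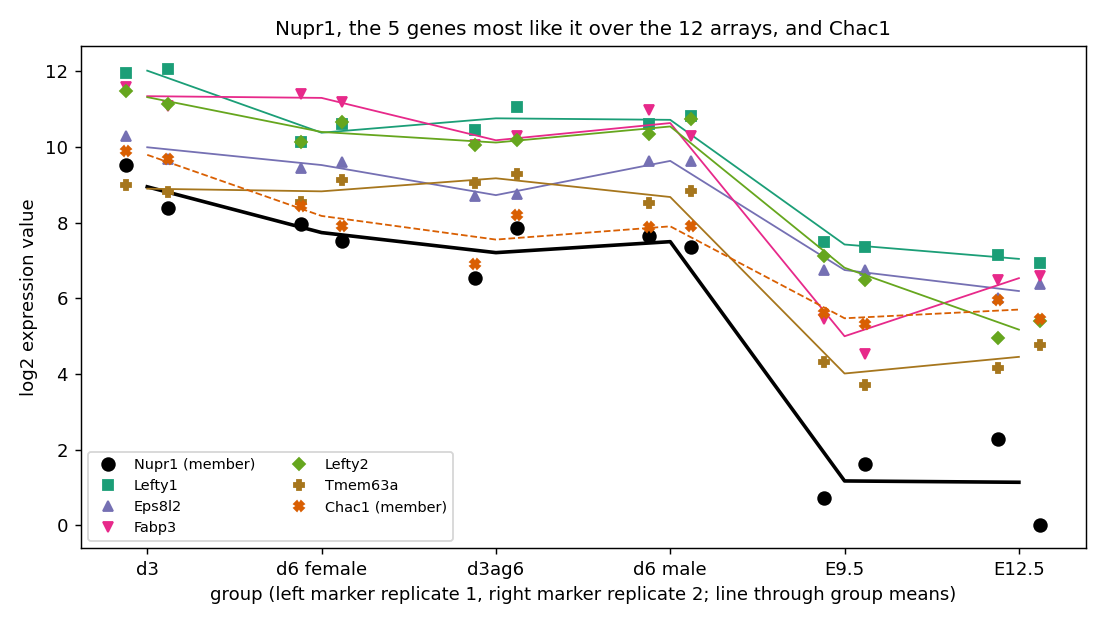
Log2 expression value (vertical axis) by group (horizontal axis) of Nupr1, the 5 genes with the highest Pearson r with it over the 12 arrays, and Chac1. The left marker of a group is replicate 1, the right marker replicate 2, and lines pass through group means. Heights of different probe sets are not comparable; what the lines share is the drop between the 4 PGCLC groups and the 2 PGC groups, which for Nupr1 runs from group means of 7.21 to 8.95 down to 1.14 to 1.18.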

How the data were processed

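Amplified cDNA of sorted PGCLCs and PGCs was hybridised to Affymetrix mouse arrays, 12 arrays in 6 groups of 2. The authors deposited a table of log2 expression values for 45101 probe sets. The log2 scale was read from the range of the deposited values, and how the authors summarised and normalized the probes before depositing them is not given in the sources used here. Probe sets were named through the platform annotation: 34958 had 1 gene, 932 several and 9211 none, and 34754 of the first matched the RefSeq gene table. No column was left without a sample, and Tsix was not analysed here.

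Array medians differed by more than 0.1, so values were quantile normalized. Each gene was represented by its probe set with the highest mean and tested where at least 2 arrays exceeded 4.81. Differences were fitted with limma 3.58.1 in R 4.3.3 (lmFit and eBayes, 1 mean per group over all 12 arrays, 6 residual degrees of freedom), two-sided, with Benjamini-Hochberg adjustment over 13436 genes. Calls were made below an adjusted p of 0.05. The steps were tested on simulated data. P-values set a difference of group means against the spread between replicate arrays. That spread was pooled over all groups and moderated across genes by eBayes. Python 3.11.15 with pandas 2.3.3, numpy 2.4.6 and matplotlib 3.10.9 handled tables and figures.

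The members and gene lists were chosen with earlier results of these data known. Named were all members, up to 3 called genes per list and comparison by adjusted p, and the 5 genes with the highest Pearson r with Nupr1 over arrays and over group means, without provisional symbols. Txnip, Ero1a and Ndrg1 were named because 3 list genes went against the rest. Group and replicate number came from the titles. Same-numbered arrays deviated together with correlations of -0.2521 to 0.5474. The highest is that of E9.5 and d6 male, whose same-numbered arrays also share an array code, so the number does pair arrays in those groups. For the other groups nothing in the labels ties equal numbers together.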

Additional observations from a re-analysis of the deposited data

Results flagged for a closer look

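For 5 genes of the response, the difference of d3ag6 from d6 female was unlike the change from E9.5 to E12.5 in the embryo. This was by a test of the difference between these steps (limma, adjusted over 13436 genes). The 5 genes are 6.67% of the 75 list genes, near the 5.75% of all genes called for this contrast, so the count says nothing particular about the response. Slc1a5 differed by -0.91 in d3ag6 minus d6 female and by -3.38 in E12.5 minus E9.5. The difference between these steps was 2.47 ± 0.22 (SE) with an adjusted p of 0.00208, a call that held with each of the 8 arrays left out. For Slc38a2, a carrier of small neutral amino acids, the steps were 0.17 and -1.60, which differed by 1.77 (adjusted p = 0.02). The steps of Slc7a3 were -0.27 and -2.71, which differed by 2.45 (0.042). Eif2ak1, the heme-regulated eIF2 kinase, had steps of -0.11 and 0.80, a difference of -0.91 (0.032). Trib3 had steps of 0.65 and 2.27, a difference of -1.62 (0.0329). With 1 array left out, Slc38a2 lost its call in 5 of 8 fits (adjusted p up to 0.0814), Slc7a3 in 7 (0.138), Eif2ak1 in all 8 (0.137) and Trib3 in 6 (0.128). The array code cannot be told apart from the group in the embryonic step.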

How the results depend on the processing

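No called difference of a member changed sign under any setting run. Counts of called members moved by over 1.5 times as follows, and the cause was not tested. In fits on the compared groups' arrays alone, which leave fewer arrays to estimate the spread, the count was 0 in place of 3 for d3ag6 minus d3, 0 in place of 1 for d3ag6 minus E12.5, 1 in place of 5 for d6 female minus E9.5 and 1 in place of 2 for E12.5 minus E9.5. The filter at the 75th percentile gave 1 in place of 0 for d6 female minus d3, as did the values as deposited, and 2 for d3ag6 minus E12.5, as did raising values below 4.81 to it. For d6 female minus E9.5 the count was 3 without a filter, on the values as deposited and with the mean of all probe sets. With that mean Ddit3 did not pass the filter for testing, and the count was 1 for E12.5 minus E9.5. For the difference of the 2 steps the count was 0 without a filter and as deposited. With the array code as a block it was 5 in place of 3 for d6 male minus E9.5.

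Of the 75 list genes, without a filter 1 was called in place of 3 for d6 female minus d3, 3 in place of 6 for d3ag6 minus d6 female, 0 in place of 1 for d6 female minus d6 male and 2 in place of 5 for the difference of steps. The mean of all probe sets gave 3 for d3ag6 minus d6 female, 7 in place of 12 for d3ag6 minus E12.5, 0 for d6 female minus d6 male and 2 for the difference of steps. With only the arrays compared the counts were 1 for d6 female minus d3, 8 in place of 23 for d3ag6 minus d3, 3 for d3ag6 minus d6 female, 4 in place of 18 for d6 female minus E9.5, 4 in place of 12 for d6 male minus E9.5 and 0 for d6 female minus d6 male. That last comparison also gave 0 as deposited and with the replicate block, and 2 with values below 4.81 raised to it. With the array code as a block, 19 list genes were called for d6 male minus E9.5. Over all genes, the fits on only the arrays compared called 765 in place of 1430 for d3ag6 minus d3. They called 560 in place of 1872 for d6 female minus E9.5 and 291 in place of 1424 for d6 male minus E9.5. More of all genes were called only for d3ag6 minus E12.5, 1653 in place of 1213. On the second probe set the mean of Nupr1 was 7.26 in d6 female in place of 7.74, 7.13 in d6 male in place of 7.50 and 0.30 in E9.5 in place of 1.18; in E12.5 it was 1.75 in place of 1.14.

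With each array left out in turn, called members numbered 0 in every fit for d6 female minus d3, for d6 female minus d6 male and for d3ag6 minus d6 female, 1 to 3 for d3ag6 minus d3, 0 to 1 for d3ag6 minus E12.5, 2 to 3 for d6 female minus E9.5, 2 to 3 for d6 male minus E9.5, 1 to 2 for E12.5 minus E9.5 and 0 to 1 for the difference of steps. Called list genes numbered 0 to 2 for d6 female minus d3, 7 to 16 for d3ag6 minus d3, 0 to 1 for d3ag6 minus d6 female, 3 to 7 for d3ag6 minus E12.5, 6 to 11 for d6 female minus E9.5, 7 to 8 for d6 male minus E9.5, 0 to 1 for d6 female minus d6 male, 10 to 15 for E12.5 minus E9.5 and 1 to 4 for the difference of steps. Fewer of all genes were called as well in every such fit for d3ag6 minus d3, d6 female minus E9.5 and d6 male minus E9.5. A lone array was assumed to vary like those of other groups.

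Replicate numbers pair the arrays of E9.5 and d6 male, through the array code, and were not shown to pair other groups. For d6 male minus E9.5, 1424 genes were called, 1496 with the replicate number of all arrays as a block and 2004 with the array code as a block. With the replicate number as a block, 547 genes were called for d6 female minus d3 in place of 545 and 1541 for d3ag6 minus d3 in place of 1430, and among the members only Atf5 in d3ag6 minus d3 lost its call (0.0505). Since d3 replicates deviated against the other numbers (-0.2521 and -0.2386), a block with the d3 numbers exchanged was added and called 709 and 1836 genes, with 0 and 3 members. The exchanged block, the array code as a block and the raised floor were chosen after seeing the data. The PGC values of Nupr1 lie far below the median of the arrays, where the size of a difference is not reliable.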
